A study of Mus musculus with 12 samples.

Results

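The ATF4 response module and its tRNA synthetases were followed in plated mouse hepatocytes across the 4 combinations of REV-ERB genotype and SR9009 treatment. The members are 37 genes given by symbol, 24 of the response itself and 13 cytosolic tRNA synthetases, and each was found once among the 37991 genes of the table. Of these, 35 reached 1 FPKM (fragments per kilobase of gene model, scaled to library size) in at least 3 of 12 libraries and were tested with the rest of the table. In 34 of them that level was reached in all 12 libraries; Pycr1 reached it in 11.

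The hepatocytes came from 10-week-old male mice whose REV-ERBα and REV-ERBβ genes (Nr1d1 and Nr1d2) both carried loxP sites, in every group. Under the hepatocyte-active TBG promoter, AAV8 vectors given 2 weeks before isolation expressed Cre and GFP (KO-labelled) or only GFP (control). In culture the cells then received 10 µM SR9009, a compound made as a REV-ERB agonist, or its solvent DMSO for 8 h. This gave 3 libraries each of KO-labelled SR9009, KO-labelled DMSO, control SR9009 and control DMSO. No group holds Cre without loxP sites, so Cre and the loss of REV-ERB cannot be told apart. The labels do not say whether the 3 libraries of a group come from separate mice, so p-values measure the spread between libraries, which may be technical. The series title speaks of REV-ERB-independent effects of SR9009, and the comparisons ask how the module differs with SR9009 in each genotype and with genotype in each treatment.

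ATF4 is the main transcription factor of the integrated stress response. When kinases that sense amino acid shortage, unfolded protein, heme shortage or double-stranded RNA phosphorylate the initiation factor eIF2, translation in general slows while that of ATF4 mRNA rises, so the level of ATF4 protein need not follow its transcript. ATF4 pairs with C/EBP proteins on a composite DNA element and drives genes for amino acid synthesis and uptake, tRNA charging, and feedback on the stress signal. tRNA synthetases load each tRNA with its amino acid.

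The transcripts of the targeted genes were present at similar levels in both genotypes. Nr1d1 had 22.5, 21.5 and 22.2 FPKM in KO-labelled SR9009, 17.4, 17.5 and 18.3 in KO-labelled DMSO, 20.1, 19.0 and 19.4 in control SR9009 and 18.3, 18.3 and 19.0 in control DMSO. Nr1d2 had 15.9, 18.2 and 18.9 FPKM in KO-labelled SR9009, 16.3, 16.2 and 16.1 in KO-labelled DMSO, 16.7, 15.7 and 13.5 in control SR9009 and 13.9, 14.7 and 17.4 in control DMSO. In DMSO the KO-labelled libraries of Nr1d1 were just below the control ones and those of Nr1d2 overlapped them (exact two-sided permutation p = 0.1 and p = 0.4, where 0.1 is the smallest that 3 against 3 libraries can give; adjusted p = 0.492 and 0.633). Under SR9009 Nr1d1 was higher in KO-labelled than in control cells (log2 change 0.17, adjusted p = 0.0429), and SR9009 raised it in KO-labelled cells (log2 change 0.30, adjusted p = 0.00472). The values cover whole gene models and the deleted part is not named in the labels, so they check neither the deletion nor the labels. Relative depth was taken from the most frequent ratio between the low values of the same genes in control DMSO library 1 and another library. It was 55.7% to 92.3% of that of control DMSO library 1 in the other 11 libraries. The lowest were control SR9009 library 1 (55.7%) and KO-labelled DMSO library 1 (63.5%). The summed level of 8 hepatocyte markers was 33625 to 34600 FPKM in KO-labelled SR9009, 35412 to 37876 FPKM in KO-labelled DMSO, 31029 to 33123 FPKM in control SR9009 and 34575 to 35076 FPKM in control DMSO, so that SR9009 libraries were below DMSO libraries in both genotypes. Alb makes up most of the sum, and 3 of the 8 markers were called lower with SR9009 in each genotype. Among them, the SR9009 level of Hnf4a was 0.662 of DMSO in KO-labelled and 0.762 in control cells, and that of Cps1 was 0.595 in KO-labelled and 0.693 in control cells. Between genotypes 4 markers were called higher in KO-labelled cells under each treatment, among them Ass1 (1.71-fold under SR9009 and 1.76-fold in DMSO), and 2 were lower under SR9009 and 1 in DMSO. The part of these markers in the SR9009 and genotype differences of the module was not tested. Of the markers of other liver cells, the 7 of Kupffer cells summed to 6.89 to 11.7 FPKM in KO-labelled SR9009 and 8.25 to 10.3 FPKM in KO-labelled DMSO, against 20.2 to 21.0 FPKM in control SR9009 and 18.6 to 24.1 FPKM in control DMSO. Marco carries most of that difference, at 0.196 of the control level under SR9009 and 0.175 in DMSO. The folds of the other 6 ran from 0.641 to 0.801 under SR9009 and from 0.47 to 1.01 in DMSO. The 7 endothelial markers summed to 10.84 to 10.98 FPKM in KO-labelled SR9009 and 10.8 to 16.1 FPKM in KO-labelled DMSO, against 7.25 to 8.74 FPKM in control SR9009 and 7.03 to 7.93 FPKM in control DMSO. The 6 cholangiocyte markers summed to 34.5 to 38.7 FPKM in KO-labelled SR9009 and 29.1 to 38.8 FPKM in KO-labelled DMSO, against 39.4 to 61.7 FPKM in control SR9009 and 42.1 to 44.7 FPKM in control DMSO. That sum is mostly Spp1, which was lower in KO-labelled cells (fold 0.574 under SR9009 and 0.61 in DMSO), while Sox9, the other marker tested, was higher (3.09-fold under SR9009 and 3.41-fold in DMSO). In each of these 3 lists 0 markers were at 0 in all 12 libraries, and their part in the genotype differences was not tested. Fewer cells of a type and less RNA per cell cannot be told apart in these libraries.

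The composite element that ATF4 and C/EBP share was looked for in RefSeq promoter windows of build GRCm38.p6, 250 bases before to 50 bases after each annotated start. It was searched as TGATGNAA on both strands, where N is any base. Windows were at hand for 30 of the 37 members, and 11 of these 30 (36.7%) held at least 1 match, against 4.51% of the 27025 genes with a window. The members without a window were Slc7a5 and the synthetases Cars, Lars, Mars, Nars, Vars and Wars. Members were listed as genes of the ATF4 response and synthetases, so the higher share describes the list and is not a result of these libraries. A match is a description of the letters and not evidence of binding. Each match is printed with 8 bases on each side, on the strand of the gene. The search fixed every letter of a match except N, so the likeness of the matches is not a result. Capitals mark the match, which reads TTNCATCA where it lies on the opposite strand. They lie in 2 regulators, 2 effectors, 2 amino acid enzymes and 5 of the 7 synthetases with a window, of which Aars held a pair. The matches of Trib3, Iars and Yars lie after the annotated start, like the match of Aars so labelled, and the others lie before it.
Trib3: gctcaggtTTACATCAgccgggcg
Nupr1: gggccagaTTGCATCAgacagggc
Vldlr: agcaatagTTGCATCAgcgctcct
Chac1: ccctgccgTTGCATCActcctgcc
Asns: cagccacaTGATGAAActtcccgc
Pycr1: cctgtgtaTGATGCAAtgcacaag
Tars: gagtcccgTTGCATCAgctggtta
Aars, upstream match: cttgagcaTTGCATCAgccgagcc
Aars, match after the start: gggtcactTTTCATCAgagcgctc
Gars: ctgcgctaTTTCATCAtgcaccgg
Iars: tgtcagtaTTGCATCAcctccaga
Yars: agctcagcTGATGCAAcccgacgg

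The 250 bases before the annotated start are printed for 3 members that changed with genotype: Asns and Tars, which were called in opposite directions under both treatments, and Chac1, lower in DMSO, whose match lies farther from the start. Coordinates are GRCm38.p6, each sequence reads 5′ to 3′ on the gene's strand, and capitals mark the match.
Asns, chr6:7693210-7693459, minus strand: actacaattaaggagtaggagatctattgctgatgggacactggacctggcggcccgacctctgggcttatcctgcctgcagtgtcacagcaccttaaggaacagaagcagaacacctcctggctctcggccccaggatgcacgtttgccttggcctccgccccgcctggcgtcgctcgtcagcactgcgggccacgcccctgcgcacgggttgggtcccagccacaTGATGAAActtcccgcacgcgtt
Tars, chr15:11399659-11399908, minus strand: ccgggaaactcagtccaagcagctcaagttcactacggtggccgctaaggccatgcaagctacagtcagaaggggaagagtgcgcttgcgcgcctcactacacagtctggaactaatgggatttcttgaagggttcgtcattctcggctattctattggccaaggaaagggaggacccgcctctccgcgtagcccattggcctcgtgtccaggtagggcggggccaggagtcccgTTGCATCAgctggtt
Chac1, chr2:119350992-119351241, plus strand: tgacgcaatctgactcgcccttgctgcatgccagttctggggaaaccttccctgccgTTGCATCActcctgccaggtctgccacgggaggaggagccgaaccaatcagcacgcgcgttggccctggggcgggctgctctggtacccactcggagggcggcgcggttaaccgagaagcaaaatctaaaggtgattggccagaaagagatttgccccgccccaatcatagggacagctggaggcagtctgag

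Across the 35 tested members, SR9009 raised more genes than it lowered in both genotypes, and KO-labelled cells had more members lower than higher under both treatments. A gene was called when its adjusted p was below 0.05 in the fit to all tested genes. With SR9009 in KO-labelled cells 5 members rose and 1 fell, 17.1% of 35, where 9.87% of all 11213 tested genes were called (5.32% higher and 4.56% lower). In control cells 6 rose and 1 fell, 20.0% of members against 8.24% of all genes (3.69% higher and 4.55% lower). The median log2 change with SR9009 was 0.14 in KO-labelled and 0.11 in control cells, beside 0.00 and -0.02 over all tested genes. Under SR9009, 1 member was higher and 9 lower in KO-labelled than in control cells, 28.6% against 20.4% of all genes (12.9% higher and 7.43% lower), with a median of -0.08 beside 0.06 over all genes. In DMSO 3 were higher and 11 lower, 40.0% against 20.0% of all genes (11.7% higher and 8.32% lower), with a median of -0.11 beside 0.04. The libraries of the 2 groups did not overlap for 17 members with SR9009 in KO-labelled cells and 16 in control cells, where 32.3% and 25.0% of all genes were so. They did not overlap for 13 members between genotypes under SR9009 and 22 in DMSO, where 34.9% and 41.2% of all genes were so. Over all genes 63.5% of the genotype calls under SR9009 were higher in KO-labelled cells, and 48.2% when libraries were scaled by their median ratio.

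None of the 35 members passed in the test of whether the SR9009 effect differed between genotypes (limma interaction term; 6 had an unadjusted p under 0.05, and 3 of 11213 genes, 0.0268%, were called). The counts of calls rested in part on single libraries. With SR9009 in control, 4 members were called without control DMSO library 1 and 4 without control SR9009 library 1. The calls over all genes fell there too, from 924 to 536 and 646. In the genotype comparison in DMSO, 8 members were called without control DMSO library 1 and 9 without KO-labelled DMSO library 3. Calls over all genes fell from 2240 to 1678 and 1691 in these fits. For SR9009 in KO-labelled cells the count of members reached 10 without control SR9009 library 3, which enters only through the shared estimate of the spread. Calls over all genes rose there from 1107 to 1437. The shifts in the member counts thus went along with shifts over the whole table. The comparisons also share libraries. SR9009 in KO-labelled cells and genotype in DMSO both use the KO-labelled DMSO libraries, and SR9009 in control and genotype in DMSO both use the control DMSO libraries. Genotype under SR9009 shares the KO-labelled SR9009 libraries with SR9009 in KO-labelled cells, and the control SR9009 libraries with SR9009 in control. Ddit3, Gdf15 and Psph were called higher with SR9009 in control and lower in KO-labelled cells under SR9009. Both calls use the same control SR9009 libraries.

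**Figure D1:**
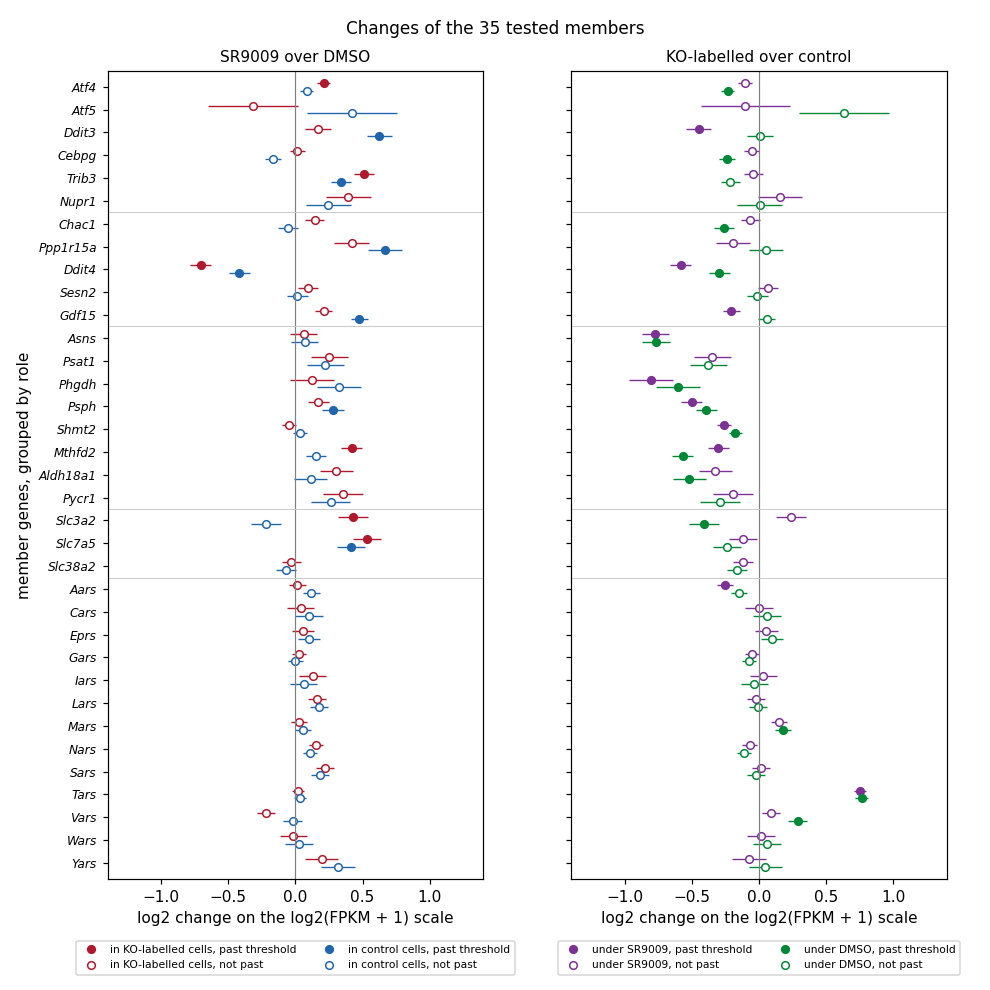
Log2 changes on the log2(FPKM + 1) scale (horizontal axis) of the 35 tested members (rows, grouped by role), with SR9009 over DMSO on the left and KO-labelled over control on the right; points are fitted changes, bars are SE, and filled points passed an adjusted p of 0.05. The enzymes lie left of 0 in both genotype comparisons, Tars lies at 0.75 and 0.76 in them, and Ddit4 lies left of 0 in all 4.

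Among the 6 regulators, Trib3, Ddit3 and Atf4 were the ones raised by SR9009, and Atf4, Cebpg and Ddit3 were lower in KO-labelled cells under 1 of the treatments. Atf4 itself (ENSMUSG00000042406, mm9 chromosome 15, 80085614 to 80087970) had 230.1, 222 and 212 FPKM in KO-labelled SR9009, 192, 192 and 189 in KO-labelled DMSO, 238, 231 and 245 in control SR9009 and 229.8, 229.6 and 215 in control DMSO. The KO-labelled DMSO libraries were below all 9 others. Relative to control, KO-labelled DMSO cells were lower (fold 0.85; log2 change -0.23, SE 0.049, adjusted p = 0.00549). In KO-labelled cells SR9009 raised Atf4 1.16-fold (adjusted p = 0.0175), and in control cells the change of 1.06-fold did not pass (adjusted p = 0.371). The call in KO-labelled cells ended without KO-labelled DMSO library 2 or 3 or KO-labelled SR9009 library 1 or 2 (adjusted p 0.0531 to 0.0862).

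Trib3, a pseudokinase that binds ATF4 and damps its activity, had 60.7, 51.2 and 51.4 FPKM in KO-labelled SR9009, 39.4, 36.7 and 37.4 in KO-labelled DMSO, 59.4, 52.3 and 56.3 in control SR9009 and 43.0, 44.8 and 44.2 in control DMSO. SR9009 and DMSO libraries did not overlap in either genotype. The rise was 1.44-fold in KO-labelled cells (log2 change 0.51, SE 0.072, adjusted p = 0.000935) and 1.27-fold in control cells (log2 change 0.34, adjusted p = 0.0135). In control cells the call ended without control DMSO library 1 (adjusted p = 0.056) or control SR9009 library 1 (adjusted p = 0.0513). In DMSO the KO-labelled libraries were below the control ones, but the log2 change of -0.21 did not pass (adjusted p = 0.0573) except in fits without control SR9009 library 1 or KO-labelled SR9009 library 1 (adjusted p = 0.0496 and 0.0274) and in 4 other fits.

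Ddit3, which encodes the pro-apoptotic factor CHOP, had 23.1, 22.0 and 22.3 FPKM in KO-labelled SR9009, 18.8, 19.3 and 21.6 in KO-labelled DMSO, 32.2, 26.5 and 34.9 in control SR9009 and 18.7, 21.3 and 19.3 in control DMSO. The 3 control SR9009 libraries were above all 9 others. SR9009 raised it 1.58-fold in control cells (log2 change 0.63, SE 0.095, adjusted p = 0.00188), while in KO-labelled cells the fold of 1.13 did not pass (adjusted p = 0.323). Under SR9009 the KO-labelled level was lower than control (log2 change -0.45, SE 0.095, adjusted p = 0.00504), and in DMSO the genotypes differed by a log2 change of 0.01 (adjusted p = 0.967). The difference between its SR9009 effects was -0.46, SE 0.13 (adjusted p = 0.58, unadjusted p = 0.00526 from limma) and did not pass. Its gene model overlaps that of Mars on the other strand by 68 bp.

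Cebpg, a C/EBP partner of ATF4, had 24.5, 26.3 and 24.9 FPKM in KO-labelled SR9009, 25.0, 25.0 and 24.8 in KO-labelled DMSO, 27.5, 26.7 and 24.5 in control SR9009 and 30.1, 29.2 and 29.6 in control DMSO. The control DMSO libraries were above all others. In DMSO it was lower in KO-labelled than in control cells (log2 change -0.24, SE 0.058, adjusted p = 0.0121), under SR9009 the log2 change of -0.06 did not pass (adjusted p = 0.551), and in neither genotype did SR9009 change it past the threshold. Nupr1, a small stress-induced chromatin protein, ranged from 4.13 to 7.85 FPKM over the 12 libraries and was not called in any comparison.

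Atf5, a relative of ATF4 that is under the same kind of translational control, had 277, 116 and 259 FPKM in KO-labelled SR9009, 262, 252 and 243 in KO-labelled DMSO, 228, 206 and 218 in control SR9009 and 102, 214 and 195 in control DMSO. Within 2 groups a single library was far below the others, so that its SD was 88.4 FPKM in KO-labelled SR9009 and 59.9 FPKM in control DMSO, where it was 9.73 FPKM in KO-labelled DMSO and 10.8 FPKM in control SR9009. No comparison of Atf5 passed, although the KO-labelled DMSO libraries were all above the control DMSO ones (log2 change 0.63, adjusted p = 0.222). Its model overlaps that of Nup62 on the other strand by 571 bp. Nup62 was at 19.5 FPKM in KO-labelled SR9009 library 2 and 18.3 FPKM in control DMSO library 1, and its own low library was KO-labelled DMSO library 1 (7.32 FPKM).

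**Figure D2:**
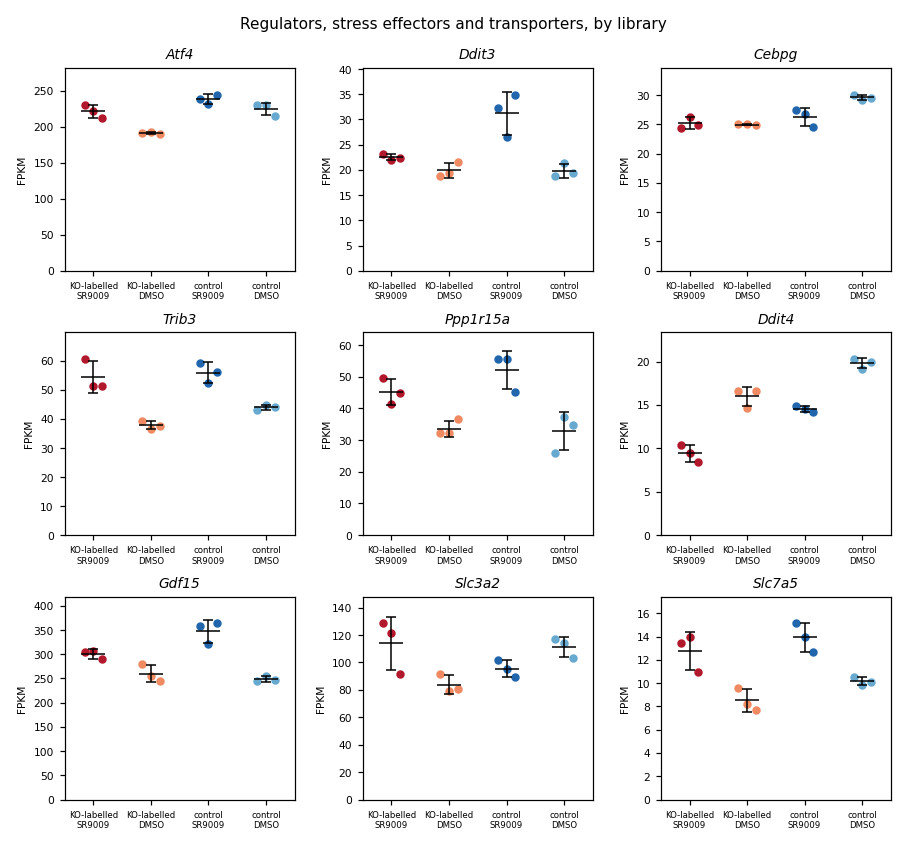
FPKM (vertical axis, from 0) of 9 regulators, stress effectors and transporters in each of the 12 libraries; points are libraries, horizontal marks are group means and bars are SD (n = 3). Trib3 and Slc7a5 are higher with SR9009 in both genotypes, Ddit3 stands out in control SR9009, and Ddit4 is lowest in KO-labelled SR9009 (8.44 to 10.3 FPKM).

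The stress effectors did not move together: Ddit4 fell with SR9009 in both genotypes while Gdf15 and Ppp1r15a rose in control cells. Ddit4, also known as REDD1, restrains mTORC1. It had 10.3, 9.48 and 8.44 FPKM in KO-labelled SR9009, 16.6, 14.7 and 16.6 in KO-labelled DMSO, 14.8, 14.6 and 14.2 in control SR9009 and 20.3, 19.2 and 20.0 in control DMSO. The KO-labelled SR9009 libraries were the lowest of all. SR9009 lowered it to 0.589 of the DMSO level in KO-labelled cells (log2 change -0.71, SE 0.078, adjusted p = 0.000156) and to 0.734 in control cells (log2 change -0.42, adjusted p = 0.00624). It was also lower in KO-labelled than in control cells, under SR9009 (log2 change -0.58, SE 0.078, adjusted p = 0.000212) and in DMSO (log2 change -0.30, adjusted p = 0.0194). The call in DMSO ended without control DMSO library 1 or 3 or KO-labelled DMSO library 2 (adjusted p 0.0603 to 0.0811). Ddit4 was the one member called in all 4 pairwise comparisons.

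Gdf15, a secreted stress hormone of the TGF-β family, had 305, 307 and 289 FPKM in KO-labelled SR9009, 279, 255 and 245 in KO-labelled DMSO, 357, 321 and 364 in control SR9009 and 244, 256 and 248 in control DMSO. The control SR9009 libraries were above all others. SR9009 raised it 1.39-fold in control cells (log2 change 0.48, SE 0.063, adjusted p = 0.000745). In KO-labelled cells the fold was 1.16 (log2 change 0.21, adjusted p = 0.0546), just short of the threshold, although the SR9009 and DMSO libraries did not overlap. It passed without KO-labelled DMSO library 1 or control SR9009 library 2 or 3 (adjusted p 0.033 to 0.0365). Under SR9009 the KO-labelled level was lower (log2 change -0.21, adjusted p = 0.0363). That call ended in 7 of the 12 fits that left out a library, namely control DMSO library 3, control SR9009 library 1 or 3, KO-labelled DMSO library 2 and each KO-labelled SR9009 library (adjusted p 0.0506 to 0.129), and in 6 other alternatives, so in 13 of 21 in all, with the highest adjusted p after quantile normalization (0.316). The difference between the SR9009 effects did not pass (log2 difference -0.26, adjusted p = 0.602).

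Ppp1r15a (GADD34), the phosphatase subunit that reverses eIF2 phosphorylation, had 49.5, 41.4 and 44.9 FPKM in KO-labelled SR9009, 32.2, 32.1 and 36.5 in KO-labelled DMSO, 55.6, 55.7 and 45.2 in control SR9009 and 26.0, 37.5 and 34.8 in control DMSO. SR9009 libraries were above DMSO libraries in both genotypes. The rise passed in control cells (1.59-fold; log2 change 0.66, SE 0.13, adjusted p = 0.00739), and not in the fit to those 2 groups alone (adjusted p = 0.0509). In KO-labelled cells the fold of 1.35 missed the threshold (adjusted p = 0.0593), and was past it without control DMSO library 1 or control SR9009 library 3 and in 2 other fits (adjusted p 0.0177 to 0.048).

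Chac1, which degrades glutathione, had 109, 105 and 96.8 FPKM in KO-labelled SR9009, 103, 95.8 and 83.7 in KO-labelled DMSO, 113, 108 and 104 in control SR9009 and 111, 115 and 112 in control DMSO. In DMSO every KO-labelled library was below every control library (log2 change -0.26, SE 0.073, adjusted p = 0.0247). This call ended without KO-labelled DMSO library 3 or any 1 control DMSO library (adjusted p 0.0571 to 0.0943). SR9009 did not change Chac1 past the threshold in either genotype. Sesn2, a sestrin that restrains mTORC1 when leucine is short, stayed between 18.9 and 23.9 FPKM in the 12 libraries and was not called.

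A pair of effectors lay below the level needed for the test. Vldlr, a lipoprotein receptor, had 0.0901, 0.0975 and 0.0644 FPKM in KO-labelled SR9009, 0.0764, 0.138 and 0.176 in KO-labelled DMSO, 0.474, 0.419 and 0.544 in control SR9009 and 0.899, 0.523 and 1.16 in control DMSO. The KO-labelled libraries were below every control library. Without the filter on low values the log2 change was -0.45 under SR9009 (adjusted p = 0.0329) and -0.71 in DMSO (adjusted p = 0.00282), in a fit to 22450 genes. Stc2, a secreted glycoprotein, was listed at 0 in 9 libraries and at no more than 0.0328 FPKM in the others.

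The 8 enzymes of amino acid synthesis and mitochondrial one-carbon metabolism were all at lower fitted levels in KO-labelled than in control cells. Under SR9009 5 of them (62.5%) were called lower, and in DMSO 6 (75.0%), with median log2 changes of -0.34 and -0.46. Of all genes 7.43% were called lower under SR9009 and 8.32% in DMSO, with medians of 0.06 and 0.04. The Kupffer cell and endothelial marker sums given above differed between the same groups, and their part was not tested. Asns, asparagine synthetase (mm9 chromosome 6, 7625169 to 7643254), whose promoter is shown above, had 25.5, 22.0 and 19.2 FPKM in KO-labelled SR9009, 23.7, 20.5 and 19.5 in KO-labelled DMSO, 37.4, 38.5 and 39.6 in control SR9009 and 39.7, 37.1 and 33.4 in control DMSO. Every KO-labelled library was below every control library. The KO-labelled level was 0.578 of control under SR9009 (log2 change -0.77, SE 0.10, adjusted p = 0.000168) and 0.577 of control in DMSO (log2 change -0.77, SE 0.10, adjusted p = 0.000193). SR9009 moved it by a log2 change of 0.06 in KO-labelled and 0.07 in control cells, neither past the threshold.

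The 3 steps of serine synthesis, in order, are catalysed by Phgdh, Psat1 and Psph. Phgdh had 4.28, 3.57 and 3.52 FPKM in KO-labelled SR9009, 4.40, 3.83 and 2.23 in KO-labelled DMSO, 7.78, 7.48 and 6.82 in control SR9009 and 6.63, 5.15 and 5.31 in control DMSO. Its KO-labelled libraries were all below the control ones. The fold was 0.515 under SR9009 (log2 change -0.81, SE 0.17, adjusted p = 0.00418) and 0.612 in DMSO (log2 change -0.61, adjusted p = 0.0225). The call in DMSO ended without control DMSO library 1 or KO-labelled DMSO library 3 (adjusted p = 0.0897 and 0.0598).

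Psph had 12.4, 12.2 and 11.5 FPKM in KO-labelled SR9009, 10.9, 11.02 and 9.80 in KO-labelled DMSO, 19.3, 16.6 and 16.5 in control SR9009 and 13.5, 14.5 and 14.6 in control DMSO. No KO-labelled library reached any control library. It was lower in KO-labelled cells under SR9009 (log2 change -0.50, SE 0.078, adjusted p = 0.000636) and in DMSO (log2 change -0.39, adjusted p = 0.00376). SR9009 raised it 1.23-fold in control cells (adjusted p = 0.0477), a call that ended in 16 of 21 alternatives. Of the 12 fits that left out 1 library it was kept in the one without control SR9009 library 3 and ended in the other 11 (adjusted p 0.0516 to 0.167). Psat1 was at 28.0 ± 3.19 FPKM in KO-labelled SR9009, 23.6 ± 5.002 in KO-labelled DMSO, 35.8 ± 3.11 in control SR9009 and 30.6 ± 2.26 FPKM in control DMSO, and its genotype differences did not pass (adjusted p = 0.0977 under SR9009 and 0.0763 in DMSO). Under SR9009 it was called lower without KO-labelled DMSO library 3 (adjusted p = 0.0226), and in DMSO with the replicate number as a block (adjusted p = 0.0381).

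Shmt2 and Mthfd2 pass the carbon of serine into the mitochondrial folate pool. Mthfd2 had 38.3, 36.0 and 31.5 FPKM in KO-labelled SR9009, 27.9, 26.3 and 24.1 in KO-labelled DMSO, 44.5, 42.6 and 43.7 in control SR9009 and 41.2, 37.9 and 38.3 in control DMSO. The groups did not overlap in any of the 4 comparisons, and the KO-labelled DMSO libraries were the lowest. It was lower in KO-labelled cells under SR9009 (log2 change -0.30, SE 0.077, adjusted p = 0.0151) and in DMSO (log2 change -0.57, SE 0.077, adjusted p = 0.000238). SR9009 raised it 1.35-fold in KO-labelled cells (log2 change 0.42, SE 0.077, adjusted p = 0.00496) and 1.11-fold, short of the threshold, in control cells (adjusted p = 0.28). The difference between these effects did not pass (log2 difference 0.27, adjusted p = 0.673). Under SR9009 the genotype call ended without KO-labelled SR9009 library 3 (adjusted p = 0.067) and in the fit to those groups alone (adjusted p = 0.0512).

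Shmt2 had 90.7, 88.8 and 90.8 FPKM in KO-labelled SR9009, 96.4, 94.0 and 89.2 in KO-labelled DMSO, 109.6, 104 and 111 in control SR9009 and 108, 102 and 106 in control DMSO. The KO-labelled libraries were below those of the control group under both treatments. The fold was 0.833 under SR9009 (log2 change -0.26, SE 0.05, adjusted p = 0.00272) and 0.884 in DMSO (log2 change -0.18, adjusted p = 0.0262). In DMSO this call ended without control DMSO library 1 or 3 or KO-labelled DMSO library 2 or 3 (adjusted p 0.0599 to 0.103). SR9009 moved Shmt2 by a log2 change of -0.05 in KO-labelled and 0.03 in control cells, neither past the threshold.

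Aldh18a1 and Pycr1 make proline from glutamate. Aldh18a1 had 8.26, 8.60 and 7.18 FPKM in KO-labelled SR9009, 6.60, 6.73 and 5.56 in KO-labelled DMSO, 11.4, 10.1 and 9.48 in control SR9009 and 9.30, 11.4 and 7.91 in control DMSO, and in DMSO it was lower in KO-labelled cells (log2 change -0.52, SE 0.12, adjusted p = 0.0103). Under SR9009 the log2 change of -0.33 did not pass (adjusted p = 0.0818), except after quantile normalization, with median ratio scaling and with the replicate block (adjusted p 0.0302 to 0.0378). Its model overlaps by 522 bp, on the same strand, that of Gm15801, a model with a higher mean level (44.9 FPKM) that was also lower in the KO-labelled libraries, at 24.2 to 35.01 FPKM against 48.9 to 72.7 FPKM in control libraries; reads shared between them cannot be told apart. Pycr1 was low, 0.752 to 2.53 FPKM, and no comparison of it passed.

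**Figure D3:**
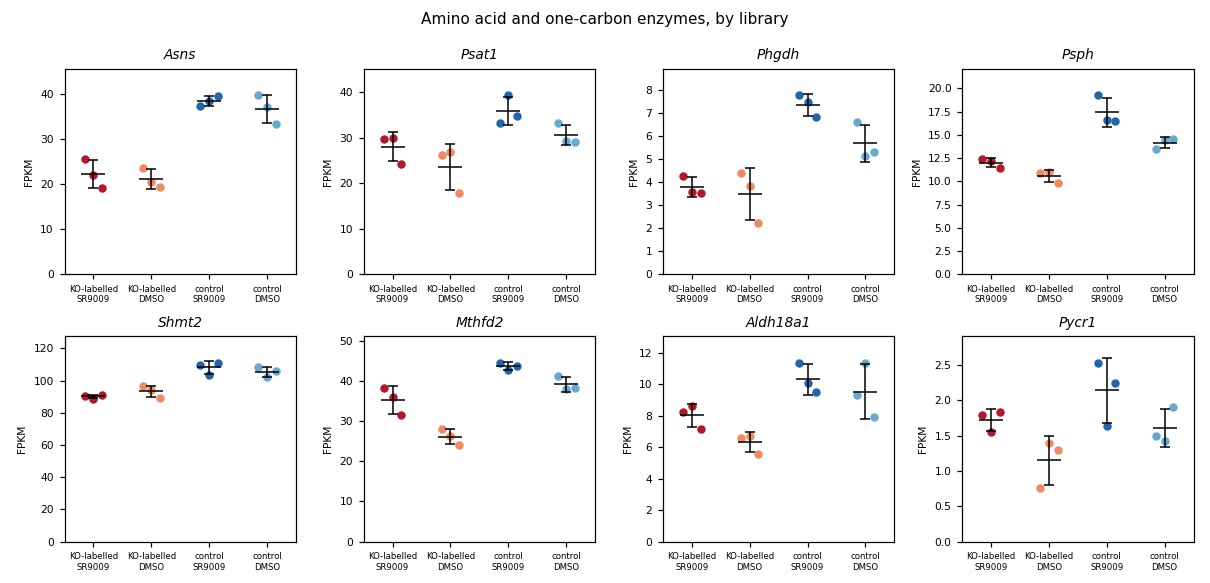
FPKM (vertical axis, from 0) of the 8 amino acid and one-carbon enzymes in each of the 12 libraries; points are libraries, horizontal marks are group means and bars are SD (n = 3). The KO-labelled libraries of Asns lie between 19.2 and 25.5 FPKM and the control libraries between 33.4 and 39.7 FPKM.

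Of the 3 amino acid transporters, Slc7a5 rose with SR9009 in both genotypes and Slc3a2 in KO-labelled cells. Slc7a5 (LAT1) carries leucine and other large neutral amino acids, and Slc3a2 (4F2hc) is the heavy chain that brings it and related carriers to the plasma membrane. Slc7a5 had 13.4, 14.0 and 10.9 FPKM in KO-labelled SR9009, 9.58, 8.25 and 7.73 in KO-labelled DMSO, 15.2, 13.9 and 12.7 in control SR9009 and 10.6, 9.88 and 10.1 in control DMSO. SR9009 libraries were above DMSO libraries in both genotypes. The rise was 1.501-fold in KO-labelled cells (log2 change 0.53, SE 0.10, adjusted p = 0.00662) and 1.37-fold in control cells (log2 change 0.41, SE 0.10, adjusted p = 0.03). In control cells the call ended without any 1 control DMSO library, or without control SR9009 library 1 or 2 (adjusted p 0.0661 to 0.0961).

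Slc3a2 had 129, 121 and 91.9 FPKM in KO-labelled SR9009, 91.5, 79.1 and 80.8 in KO-labelled DMSO, 102, 95.2 and 89.5 in control SR9009 and 117, 114 and 103 in control DMSO. In KO-labelled cells every SR9009 library was above every DMSO library, and in control cells every SR9009 library was below every DMSO library, though the nearest libraries were close, at 91.9 FPKM with SR9009 against 91.5 FPKM with DMSO in KO-labelled cells and 102 against 103 FPKM in control cells. SR9009 raised Slc3a2 1.36-fold in KO-labelled cells (log2 change 0.43, SE 0.11, adjusted p = 0.0301), and its fold of 0.856 in control cells did not pass (log2 change -0.22, adjusted p = 0.278). The difference between the SR9009 effects had the smallest p of the module's members (log2 difference 0.65, SE 0.16; unadjusted p = 0.00139) and did not pass in limma after adjustment over all genes (adjusted p = 0.362). In DMSO it was lower in KO-labelled than in control cells (log2 change -0.41, adjusted p = 0.0221), and under SR9009 the log2 change of 0.24 did not pass (adjusted p = 0.151). These values rest on few libraries: the call in KO-labelled cells ended without KO-labelled DMSO library 2 or 3 or KO-labelled SR9009 library 1 or 2 (adjusted p 0.0972 to 0.129). The genotype call in DMSO ended without control DMSO library 1 or 2 or KO-labelled DMSO library 2 or 3 (adjusted p 0.0708 to 0.077), and under SR9009 Slc3a2 was called higher without KO-labelled SR9009 library 3 (adjusted p = 0.00939). Slc38a2 (SNAT2), which imports glutamine and other small neutral amino acids, ranged from 35.2 to 45.1 FPKM and was not called.

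Over all genes 9.87% were called for SR9009 in KO-labelled and 8.24% in control cells. Of the 13 tRNA synthetases none was called for SR9009 in either genotype (limma; 4 had an unadjusted p under 0.05 in KO-labelled and 3 in control cells). Their log2 changes with SR9009 ran from -0.22 to 0.22 in KO-labelled cells, with a median of 0.04, and from -0.02 to 0.32 in control cells, with a median of 0.10. The highest in KO-labelled cells was Sars, the serine enzyme, at 96.9, 92.4 and 84.4 FPKM with SR9009 against 79.9, 75.2 and 78.8 with DMSO (adjusted p = 0.0607), and it passed without control DMSO library 3 or KO-labelled SR9009 library 3 and with the 5 FPKM filter (adjusted p 0.0373 to 0.0477). The highest in control cells was Yars, the tyrosine enzyme, at 33.0, 34.8 and 31.0 FPKM with SR9009 against 23.0, 27.6 and 28.4 with DMSO (adjusted p = 0.16). Lars and Nars, the leucine and asparagine enzymes, passed in 1 fit each: Lars in control cells without control SR9009 library 3 (adjusted p = 0.0235), and Nars in KO-labelled cells without the same library (adjusted p just below 0.05).

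Between genotypes 15.4% of the 13 were called under SR9009 and 23.1% in DMSO, where 20.4% and 20.0% of all genes were called. Tars, the threonine enzyme (mm9 chromosome 15, 11313418 to 11329413; promoter shown above), had the largest fitted change of the 13 in both treatments. It had 141, 138 and 143 FPKM in KO-labelled SR9009, 136, 145 and 137 in KO-labelled DMSO, 85.1, 83.7 and 81.3 in control SR9009 and 82.0, 82.3 and 80.1 in control DMSO. All 6 KO-labelled libraries were at 136 FPKM or more and all 6 control libraries at 85.1 FPKM or less. The fold was 1.69 under SR9009 (log2 change 0.75, SE 0.046, adjusted p = 2.6e-07) and 1.71 in DMSO (log2 change 0.76, SE 0.046, adjusted p = 2.12e-07), with the smallest p of any member in both comparisons. SR9009 moved it by log2 changes of 0.02 in KO-labelled and 0.03 in control cells, and the difference between these was -0.01, SE 0.065.

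Vars, the valine enzyme, had 55.3, 56.3 and 54.8 FPKM in KO-labelled SR9009, 68.5, 63.5 and 62.1 in KO-labelled DMSO, 57.7, 50.7 and 48.1 in control SR9009 and 54.2, 53.5 and 50.7 in control DMSO. The KO-labelled DMSO libraries were above all others. In DMSO it was higher in KO-labelled than in control cells (log2 change 0.29, SE 0.068, adjusted p = 0.0102), and under SR9009 it was not called (adjusted p = 0.385). With SR9009 in KO-labelled cells its log2 change of -0.22 did not pass (adjusted p = 0.0655), except without control SR9009 library 1 or 3 and in 4 other fits (adjusted p 0.0262 to 0.0469). Its model overlaps by 678 bp that of D17H6S56E-5 on the other strand, which in DMSO was also higher in KO-labelled (46.8 to 70.1 FPKM) than in control libraries (26.1 to 37.6 FPKM). 

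Mars, the methionine enzyme, had 45.0, 48.2 and 49.96 FPKM in KO-labelled SR9009, 47.6, 45.4 and 47.3 in KO-labelled DMSO, 45.2, 41.8 and 41.7 in control SR9009 and 41.0, 39.6 and 42.8 in control DMSO. In DMSO the KO-labelled libraries were above the control ones (log2 change 0.18, adjusted p = 0.0489), close to the threshold. That call ended in 14 of 21 alternatives, among them 9 that left out 1 library (any 1 of the 6 compared, control SR9009 library 2, or KO-labelled SR9009 library 2 or 3; adjusted p 0.0532 to 0.164), and with median ratio scaling (adjusted p = 0.108). Aars, the alanine enzyme, had 59.3, 58.9 and 56.4 FPKM in KO-labelled SR9009, 58.6, 57.2 and 57.0 in KO-labelled DMSO, 76.0, 69.1 and 64.2 in control SR9009 and 65.5, 62.6 and 64.0 in control DMSO. Under both treatments every KO-labelled library was below every library of its control group. It was called lower under SR9009 (log2 change -0.25, SE 0.06, adjusted p = 0.00994), though not in the fit to those groups alone (adjusted p = 0.0655). In DMSO its log2 change of -0.15 did not pass (adjusted p = 0.106), except without control SR9009 library 3 (adjusted p = 0.0418) and with median ratio scaling (adjusted p = 0.0273). The other 9 synthetases were not called between genotypes in either treatment, among them Cars, Eprs and Wars, the cysteine, glutamate-proline and tryptophan enzymes, which ranged over the 12 libraries from 26.0 to 35.8, 34.7 to 45.6 and 18.5 to 23.6 FPKM. Nars is also among the 9. In DMSO its KO-labelled libraries (102 to 105 FPKM) were all below the control ones (108 to 118 FPKM). Its log2 change of -0.11 did not pass (adjusted p = 0.168), except with median ratio scaling (adjusted p = 0.0498). Among those with a match to the element, Tars was called higher and Aars lower in KO-labelled cells, and Gars, Iars and Yars were not called.

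**Figure D4:**
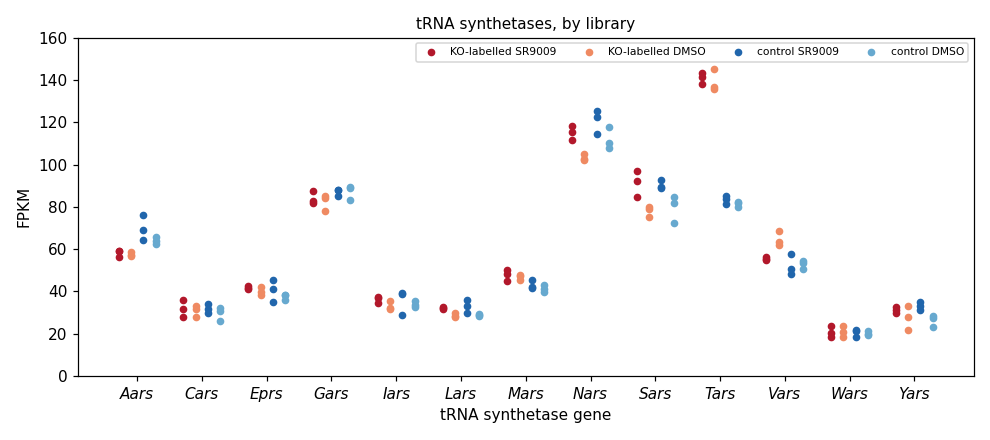
FPKM (vertical axis, from 0) of the 13 cytosolic tRNA synthetases (horizontal axis) in each of the 12 libraries, coloured by group. Tars separates the genotypes (136 to 145 FPKM in KO-labelled and 80.1 to 85.1 FPKM in control libraries), and most others overlap.

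Genes of the same pathway outside the module were read beside it. Of 25 other ATF4 targets 23 were tested. With SR9009 in KO-labelled cells 6 rose and 3 fell (median log2 change 0.09), and in control cells 4 rose and 4 fell (median 0.10). These were 39.1% and 34.8% of the 23. Of all genes 9.87% were called in KO-labelled cells (5.32% higher and 4.56% lower) and 8.24% in control cells (3.69% higher and 4.55% lower). Gadd45a, a growth arrest gene also driven by p53, averaged 197 ± 11.2 FPKM in KO-labelled SR9009, 61.8 ± 6.13 in KO-labelled DMSO, 415 ± 7.94 in control SR9009 and 112 ± 8.77 FPKM in control DMSO. It rose 3.20-fold with SR9009 in KO-labelled and 3.69-fold in control cells (adjusted p = 1.69e-07 and 4.11e-08), more than any member of the module. Gpt2, a mitochondrial alanine transaminase, averaged 65.0 ± 3.25 FPKM in KO-labelled SR9009, 89.4 ± 4.61 in KO-labelled DMSO, 108 ± 9.48 in control SR9009 and 159 ± 8.50 FPKM in control DMSO, and fell with SR9009 in both genotypes (adjusted p = 0.00194 in KO-labelled and 0.000711 in control cells).

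Between genotypes 3 of the 23 were higher and 9 lower in KO-labelled cells under SR9009 (median log2 change -0.25), and 4 were higher and 8 lower in DMSO (median -0.18). That was 52.2% of the 23 under each treatment. Of all genes 20.4% were called under SR9009 (12.9% higher and 7.43% lower) and 20.0% in DMSO (11.7% higher and 8.32% lower). Gadd45a and Gpt2 were lower under both treatments, with folds of 0.476 and 0.6 under SR9009 and 0.55 and 0.563 in DMSO. Atf3, a stress-induced factor that forms dimers with other bZIP proteins, averaged 43.9 ± 0.885 FPKM in KO-labelled SR9009, 34.4 ± 0.87 in KO-labelled DMSO, 80.4 ± 2.83 in control SR9009 and 68.8 ± 1.46 FPKM in control DMSO. It was lower in KO-labelled cells (adjusted p = 1.34e-07 under SR9009 and 4.41e-08 in DMSO) and rose with SR9009 (adjusted p = 0.00096 in KO-labelled and 0.0154 in control cells). Cdkn1a (p21), which halts the cell cycle, had 192, 185 and 192 FPKM in KO-labelled SR9009, 209, 213 and 206 in KO-labelled DMSO, 116, 117 and 111 in control SR9009 and 155, 143 and 142 in control DMSO, and was higher in KO-labelled cells (adjusted p = 5.49e-07 under SR9009 and 1.25e-05 in DMSO). The Kupffer cell and other marker sums differ between the same genotype groups, and their part was not tested.

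Among 10 genes of the other cytosolic synthetases and their scaffold, 1 rose with SR9009 in each genotype, 10.0% of the list where 9.87% of all genes were called in KO-labelled and 8.24% in control cells. It was Eef1e1, a scaffold protein of the multi-synthetase complex, at 33.6 ± 3.31 FPKM with SR9009 against 23.2 ± 2.64 FPKM with DMSO in KO-labelled cells and 40.7 ± 2.39 FPKM with SR9009 against 27.6 ± 1.43 FPKM with DMSO in control cells (adjusted p = 0.00399 and 0.00349). None of the 10 was called between genotypes (limma; 2 had an unadjusted p under 0.05 under each treatment). Of all genes 20.4% were called between genotypes under SR9009 and 20.0% in DMSO. Of 17 mitochondrial synthetases, 1 (5.88%) was called with SR9009 in each genotype, against the same 9.87% and 8.24% of all genes. In control cells it was lower, and in KO-labelled cells it was Mars2, which rose (adjusted p = 0.0493). Between genotypes 2 (11.8%) were called under each treatment, against the same 20.4% and 20.0% of all genes. These were higher in KO-labelled cells, and Cars2 was among them under both treatments (adjusted p = 0.0057 under SR9009 and 0.0225 in DMSO).

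Of 16 genes of eIF2 control, 3 (18.8%) were called with SR9009 in KO-labelled cells, where 9.87% of all genes were called. Eif2ak3 (PERK), the eIF2 kinase of the endoplasmic reticulum, fell with SR9009 in KO-labelled cells to 5.62 ± 0.817 FPKM, against 7.97 ± 0.885 FPKM with DMSO (log2 change -0.44, SE 0.11, adjusted p = 0.0261). Ppp1r15b, the constitutive partner of the eIF2 phosphatase, and Eif2s2, a subunit of eIF2, rose there (adjusted p = 0.0309 and 0.0401). None of the 16 was called for SR9009 in control cells, where 8.24% of all genes were called (limma; 4 had an unadjusted p under 0.05). Between genotypes in DMSO 12.5% of the 16 were called, where 20.0% of all genes were. There 1 gene was higher in KO-labelled than in control cells, and Ppp1r15b was lower (adjusted p = 0.0264). Under SR9009 6.25% of the 16 were called between genotypes, where 20.4% of all genes were. This was Eif2b2, a subunit of the exchange factor of eIF2, which was lower in KO-labelled cells (adjusted p = 0.0102).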

How the data were processed

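Polyadenylated RNA of 12 libraries was sequenced, per the labels' protocols. The deposited values were made by the authors with HISAT2 and StringTie on mouse build mm9 (submitters' processing notes); annotation and strand setting are not given there, so reads of overlapping models cannot be told apart. These deposited values were taken as FPKM: the header names no unit, and column sums (538521 to 604449) differ between libraries, unlike TPM. Depth is known only as a ratio, read from the steps between low values.

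Values were transformed as log2(FPKM + 1). The 11213 genes reaching 1 FPKM in 3 or more libraries were fitted with a mean per group by limma 3.58.1 in R 4.3.3 (trend, robust), with Benjamini-Hochberg adjustment over all of them; every adjusted p comes from such a fit, and a call needs one under 0.05. Log2 changes understate those of low genes; a fold is the ratio of mean FPKM. Values after ± are SD (n = 3 libraries). The fit was tested on simulated data. All members are named, with library values of those called in any comparison and of Atf4; of other lists, up to 4 called genes with the smallest p. Other members shown by library, Atf5, Vldlr, Sars and Yars, were added after their values were seen. Alternatives changed the pseudocount (0.1), filter (none, or a mean of 5 FPKM), scaling, variance model, replicate block and libraries. The members and lists were chosen with earlier results of these data known. A result on a gene of the other lists is not reported here.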

Additional observations from a re-analysis of the deposited data

Results flagged for a closer look

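Slc3a2, the heavy chain of amino acid exchangers, was flagged because SR9009 and DMSO libraries did not overlap in either genotype, in opposite directions. The nearest libraries were close, as given above. The log2 change of Slc3a2 was 0.43 in KO-labelled cells, a call that ended in 6 of 21 alternatives. In control cells it was -0.22 and did not pass (adjusted p = 0.278). The limma test of the difference did not pass after adjustment over all genes (adjusted p = 0.362).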

How the results depend on the processing

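Of the 37 calls of members in the 4 pairwise comparisons, 22 held in all 21 alternatives and 0 changed direction, while 13 of 103 uncalled pairs of member and comparison passed in at least 1 alternative. The fit to the compared groups alone also ended the genotype call of Phgdh in DMSO (adjusted p = 0.0592). It ended those of SR9009 on Slc7a5 in control and Slc3a2 in KO-labelled cells (adjusted p = 0.0517 and 0.0792). Without the filter on low values these calls and the genotype calls of Chac1 and Slc3a2 in DMSO ended (adjusted p 0.0555 to 0.0824). With no variance trend those of Shmt2 in DMSO and of SR9009 on Atf4 in KO-labelled cells ended (adjusted p = 0.0629 and 0.0523). With SR9009 in control cells 7 members were called, 4 in the fit to those groups alone, 4 without the 2 shallowest libraries (control SR9009 library 1 and KO-labelled DMSO library 1, an alternative chosen after seeing the data), and 4 to 8 when 1 library was left out. With SR9009 in KO-labelled cells the count ran from 4 to 10 when 1 library was left out, between genotypes under SR9009 from 9 to 11, and between genotypes in DMSO from 8 to 15; the cause was not tested. The other alternatives gave 5 to 9, 7 to 11 and 11 to 16 members in these comparisons. Leaving out 1 library gave 604 to 1437, 1645 to 2250 and 1602 to 2712 calls over all genes in them. With SR9009 in control cells it gave 531 to 920 such calls. The fit to those groups alone gave 376 there, and the fit without the 2 shallowest libraries 605. For the difference between SR9009 effects 0 members were called in every alternative. Replicate numbers did not pair the libraries: same-numbered libraries of different groups had deviations correlated at -0.11 to 0.12, and 5 of 12 libraries correlated best with their own number. With the replicate block 7 members were called for SR9009 in KO-labelled cells, 6 in control cells, 10 between genotypes under SR9009 and 15 in DMSO. The block gave 958, 793, 2131 and 2084 calls over all genes in the same order. Depth limits members near 1 FPKM such as Pycr1, and 3 libraries a group limit every test.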
